A study of Arabidopsis thaliana with 6 samples.

Results

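Expansins and xyloglucan endotransglucosylase/hydrolases (XTH) are among the gene families whose products act on the growing plant cell wall from outside the cell. The 45 genes described here are those of the 18368 genes used whose symbol in the deposited table is *EXPA*, *EXPB*, *EXLA*, *EXLB* or *XTH* with a number. They comprise 20 expansin genes (14 *EXPA*, 2 *EXPB*, 3 *EXLA* and 1 *EXLB*) and 25 *XTH* genes, of which 19 belong to group I/II, 4 to group III-B and 2 to group III-A. All were chosen by name and none by its level. The study asked which transcripts differ after a long cold period in wild-type (WT) *Arabidopsis thaliana* seedlings of the accession Col-0, which carry no transgene or mutation. Seedlings without vernalization (0v) were 11 days old and grown at 22 °C, and vernalized seedlings (4v) had 7 days at 22 °C followed by 28 days at 5 °C. Temperature and age (11 against 35 days) therefore changed together and cannot be told apart. Each group had 3 libraries of polyadenylated RNA from whole seedlings, each replicate being grown on its own plate.

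Expansins let cellulose microfibrils and the xyloglucan between them slip past one another when the wall is acidic, without cutting any polymer. Alpha-expansins (EXPA) are the large family of this kind in dicots, beta-expansins (EXPB) are best known from grass pollen, and expansin-like proteins (EXLA, EXLB) are recognised by sequence alone, with no wall-loosening activity shown. XTH enzymes cut a xyloglucan chain and join the cut end to another chain, or, in group III-A, to water. Cold is known to slow cell expansion, and several *XTH* genes, among them the touch gene *TCH4* (*XTH22*), are known to respond to temperature and mechanical stimulation.

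Values are normalized counts, that is, read counts divided by 1 size factor per library. The 3 libraries of 0v held 1785974, 1645379 and 20005225 recovered reads, in the order of their replicate numbers, and those of 4v held 1636687, 23141488 and 1836717. In the 4 shallow libraries 1 read was worth 2.84 to 3.41 normalized counts, and in the deep ones (0v replicate 3, 4v replicate 2) 0.263 and 0.203, so low members rest on a handful of reads in the former. Intervals and floors would cover counting error only. Groups were compared with limma on log2(normalized count + 4), and a gene was called at an adjusted *p* under 0.05. Shoot markers were abundant in every library (*RBCS1A* had 51506 to 95636 normalized counts) and went both ways. Of the 5 listed, *GLK1*, a transcription factor gene for chloroplast development, was higher in 4v (log2 fold change of 1.01, limma adjusted *p* = 0.0214). *LHCA1*, for a light-harvesting protein, was lower without overlap (-1.22, adjusted *p* = 0.0634) and was called by edgeR, DESeq2 and limma-voom. The 6 root markers listed (*SHR*, *SCR*, *WER*, *PIN2*, *NRT2.1*, *PLT1*) summed to 236 to 369 in 0v and to 383 to 457 in 4v. These are bulk seedlings, so fewer cells of a type and less RNA per cell cannot be told apart.

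The results turn on several *XTH* genes that are close relatives. *XTH24*, *XTH18* and *XTH19* lie next to one another on the minus strand of chromosome 4 (TAIR10), with no annotated gene between them. *XTH24* spans chr4:14819192-14820595, *XTH18* spans chr4:14825757-14827211 and *XTH19* spans chr4:14828712-14830224, which leaves gaps of 5161 and 1500 bases. *XTH20*, on the plus strand at chr5:19481897-19483527, stands apart in the genome but shares 85.6% of its coding sequence with *XTH18* and 83.0% with *XTH19*. *XTH18* and *XTH19* are 87.6% identical, whereas *XTH24* shares 67.2% with *XTH18* and 67.9% with *XTH19*. The stretch of 30 bases that encodes the catalytic site, with its conserved aspartate and glutamate residues, shows how much sequence these genes have in common, beside the group III-B genes *XTH27* and *XTH30* that also passed. Bases in capitals differ from *XTH24*. Sequences are from RefSeq (TAIR10.1).
XTH24: tgggatgagattgattttgagttcttgggt
XTH18: tgggatgagattgatttCgagttcttAggA
XTH19: tgggatgagattgatttCgagttTttgggG
XTH20: tgggatgaAatAgattttgagttcttgggA
XTH27: CATgatgagatAgattttgagttTCtTggt
XTH30: CACgaCgagTtAgaCAtAgagttTCtAggG

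In this stretch *XTH18*, *XTH19* and *XTH20* each differed from *XTH24* at 3 bases, *XTH27* at 7 and *XTH30* at 13. Distances as long as that of *XTH27* are not particular to group III-B, since *XTH4* and *XTH15* of group I/II differed at 9 and *XTH8* at 10. The 13 bases of *XTH30* were the most among the *XTH* members in which the stretch was found. Short distances are not particular to *XTH18*, *XTH19* and *XTH20* either, since *XTH12* differed at 1 base, *XTH23* at 3, and *XTH13* and *XTH14* at 4. Whether reads from such stretches were assigned to more than 1 gene was not measured. The split of reads between *XTH18*, *XTH19* and *XTH20* could thus carry an uncertainty that the deposited table does not record.

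Of the 45 genes, 41 had a mean of at least 10 normalized counts and were tested (18 expansin and 23 *XTH* genes). Among expansins 1 gene was higher and 1 was lower in 4v, which is 5.56% of those tested in each direction, beside 6.46% higher and 6.99% lower among all 16771 genes tested (limma with Benjamini-Hochberg adjustment). Among *XTH* genes 2 were higher (8.70%) and 3 were lower (13.0%). The median log2 fold change was 0.04 for expansins (9 above and 9 below 0) and -0.26 for *XTH* genes (11 above and 12 below 0), beside 0.05 for all genes. The signs were thus nearly balanced in both families. The members that passed were *EXPA11*, *XTH19* and *XTH20*, which rose, and *EXLA1*, *XTH24*, *XTH30* and *XTH27*, which fell. The counts moved when 1 library was left out. No expansin was higher without 0v replicate 1 or 2 or any 4v replicate, and expansins that were lower numbered 0 when 0v replicate 2 or either of 4v replicates 2 and 3 was left out, and 3 without 0v replicate 3. *XTH* genes that were higher numbered 1 without 4v replicate 1 or 3, and no *XTH* gene was lower without 0v replicate 1 or any 4v replicate. Calls over all genes moved too: 1083 higher and 1172 lower genes became 550 and 519 without 0v replicate 1, 653 and 756 without 0v replicate 2, 1521 and 1440 without 0v replicate 3, and 260 to 369 higher and 400 to 497 lower when a 4v library was left out. Among tested expansins the groups did not overlap for 3 genes with 4v above and 1 with 4v below, and among tested *XTH* genes for 3 and 7, where all genes gave 20.5% above and 18.7% below.

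**Figure D1:**
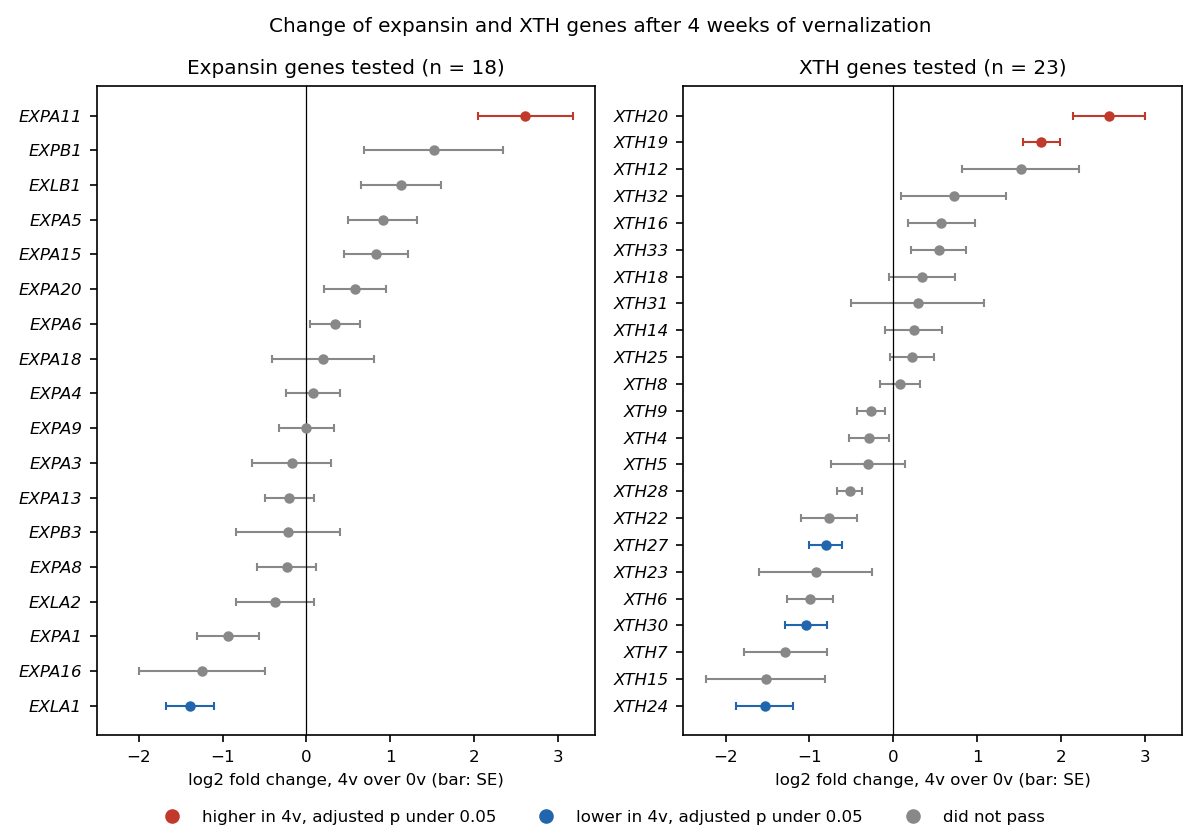
Log2 fold change (4v over 0v, limma on log2(normalized count + 4)) of the 18 expansin and 23 *XTH* genes tested. Points are estimates, bars are SE, and colour marks the calls. The members that passed range from -1.53 (*XTH24*) to 2.61 (*EXPA11*), and *XTH15* and *XTH7*, which did not pass, lie below *XTH27* and *XTH30*, which did.

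*EXPA11*, an alpha-expansin gene on the minus strand at chr1:6998335-6999839, rose. It had 20.5, 9.68 and 70.5 normalized counts in the 3 0v libraries and 174, 173 and 176 in the 3 4v libraries. The 4v libraries were nearly equal and all lay above every 0v library, among which the deep replicate 3 was the highest. The means were 33.6 ± 32.5 (SD, n = 3) and 174 ± 1.66, with a log2 fold change of 2.61 ± 0.57 (SE; limma, adjusted *p* = 0.0274). The 0v values rest on 6, 3 and 268 reads. The fold depended on the library used for 0v: the deep pair gave a log2 ratio of 1.25 and the 4 shallow libraries a log2 fold change of 3.29. The call was lost without 0v replicate 1 (adjusted *p* = 0.0816), 0v replicate 2 (0.0504), 4v replicate 1 (0.0926), 4v replicate 2 (0.0829) or 4v replicate 3 (0.0875), and with edgeR on the recovered reads (0.0539).

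No other alpha-expansin among the 45 genes passed. DESeq2 on the recovered reads called 2 (*EXPA11* and *EXPA1*), edgeR none and limma-voom 4 (*EXPA11*, *EXPA15*, *EXPA5* and *EXPA16*). *EXPA1*, known from guard cells and the most abundant expansin per kb of transcript, had 1243, 884 and 419 normalized counts in 0v and 472, 386 and 355 in 4v. The shallow 0v libraries stood high and the deep 0v library fell among the 4v values, so the groups overlapped. Its log2 fold change was -0.94 ± 0.37 (SE; limma, adjusted *p* = 0.136), and it passed without 0v replicate 3 (-1.38, adjusted *p* = 0.00726). *EXPA1* supplied 41.5%, 34.3% and 28.4% of the summed expansin count in the 0v libraries, and 20.7%, 20.8% and 18.7% in the 4v libraries. Next in level per kb, *EXPA6* had 369, 300.04 and 169.7 normalized counts in 0v and 372, 272 and 383 in 4v (log2 fold change of 0.34, limma adjusted *p* = 0.466). *EXPA8* had 413, 245 and 149 in 0v and 234, 175 and 224 in 4v (-0.24, adjusted *p* = 0.679). Both overlapped between the groups.

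*EXPA5*, which is known to respond to brassinosteroid, had 34.1, 54.8 and 19.2 normalized counts in 0v and 94.4, 63.0 and 48.3 in 4v (log2 change 0.91 ± 0.41 SE, limma adjusted *p* = 0.179). *EXPA15* had 88.8, 139 and 45.8 in 0v and 183, 150 and 125 in 4v (0.83 ± 0.38 SE, adjusted *p* = 0.183). For both genes the deep 0v library was the lowest of the 6, and the remaining values overlapped. The other tested alpha-expansins lay between -1.25 (*EXPA16*) and 0.58 (*EXPA20*). In *EXPA16* the deep 0v library alone stood high, at 54.7 normalized counts against 6.83 and 12.9 in the other two, with 3.05 to 11.4 in 4v (adjusted *p* = 0.295 from limma). The summed expansin count did not separate the groups, with 2997, 2578 and 1477 in 0v and 2281, 1854 and 1894 in 4v (two-sided exact permutation test, *p* = 0.6, where 0.1 is the smallest *p* that 3 against 3 libraries allow).

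*EXLA1* fell. This expansin-like A gene at chr3:16896166-16897308 had 123, 181 and 184 normalized counts in 0v and 85.3, 51.5 and 45.4 in 4v. The groups did not overlap, and its mean went from 163 ± 34.4 to 60.7 ± 21.5 (SD, n = 3), a log2 fold change of -1.39 ± 0.29 (SE; limma, adjusted *p* = 0.0242). The call was lost without 0v replicate 2 (adjusted *p* = 0.0701), 4v replicate 2 (0.0812) or 4v replicate 3 (0.0802), in the 4 shallow libraries (-1.20, adjusted *p* = 0.107) and with replicate number as a block (0.0741). *EXLA1* overlaps the histone H2B gene *HTB9* on the opposite strand, and it is not known here whether reads were counted by strand. *HTB9* had 642, 694 and 786 normalized counts in 0v and 646, 628 and 670 in 4v (log2 change -0.12 ± 0.13 SE, adjusted *p* = 0.557). *EXLA2*, which is 84.4% identical to *EXLA1* in its coding sequence, had 95.6, 32.3 and 66.0 in 0v and 76.1, 31.4 and 36.9 in 4v (-0.37, adjusted *p* = 0.616).

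*EXLB1*, the expansin-like B gene, had 17.1, 25.8 and 7.37 normalized counts in 0v and 27.4, 35.1 and 56.8 in 4v. Every 4v library lay above every 0v library, by a small margin, and the gene did not pass with limma (log2 change 1.13 ± 0.47 SE, limma adjusted *p* = 0.151). Limma-voom on the recovered reads called it (2.102, adjusted *p* = 0.00629). Neither beta-expansin passed with limma, edgeR or DESeq2, none had an unadjusted *p* under 0.05, and limma-voom called *EXPB1*. *EXPB1* had 30.7, 0 and 3.42 in 0v and 15.2, 28.98 and 34.1 in 4v, with 9, 0 and 13 reads behind the 0v values (1.52 ± 0.83 SE, adjusted *p* = 0.252). *EXPB3* had 205, 248 and 41.1 in 0v and 113, 140 and 85.2 in 4v (-0.22 ± 0.63 SE, adjusted *p* = 0.840). Here the 2 shallow 0v libraries lay above all 4v libraries and the deep one below them, and in the shallow libraries alone *EXPB3* was lower in 4v (-1.17, adjusted *p* = 0.0391).

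**Figure D2:**
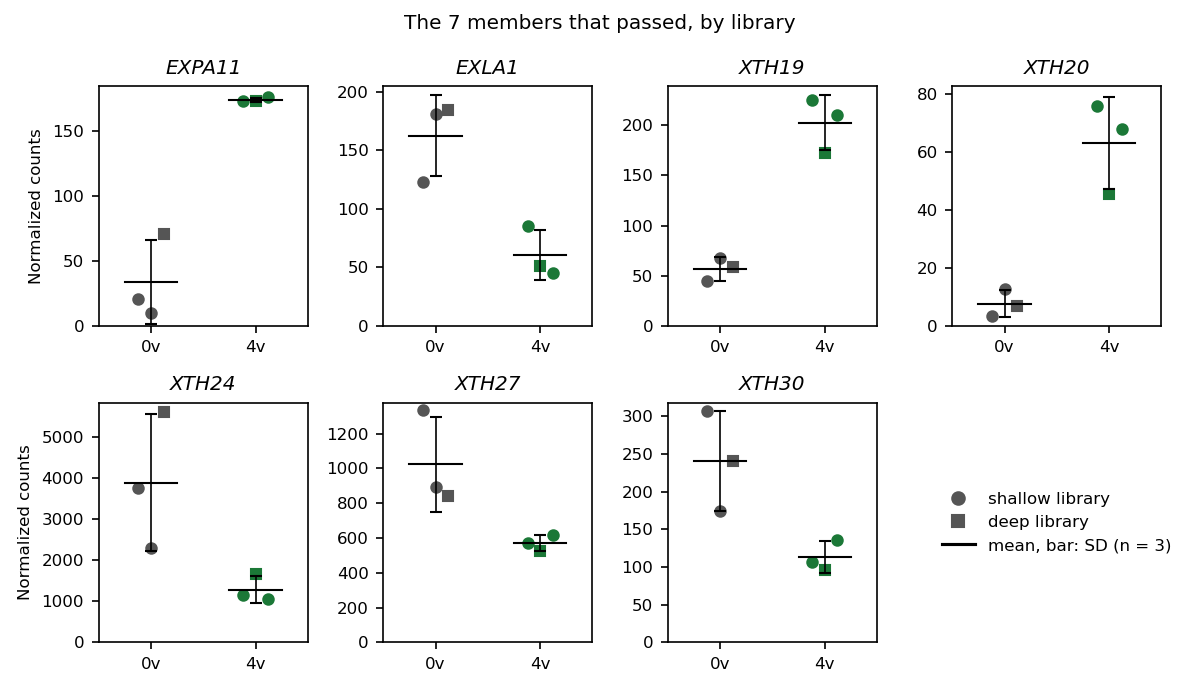
Normalized counts of the 7 members that passed, with 0v and 4v on the horizontal axis. Circles are shallow and squares deep libraries, horizontal lines are means and bars SD (n = 3); in no panel do the groups overlap, from *XTH20* (3.41 to 12.9 in 0v, 45.6 to 76.1 in 4v) to *XTH24* (2297 to 5618 in 0v, 1048 to 1666 in 4v).

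Among *XTH* genes of group I/II, *XTH19* and *XTH20* rose. Both are known from roots, as is their near copy *XTH18*. *XTH19* had 44.4, 67.8 and 58.9 normalized counts in 0v and 225, 172 and 210 in 4v. All 4v libraries lay well above all 0v libraries, with means of 57.0 ± 11.8 and 203 ± 27.4 (SD, n = 3) and a log2 fold change of 1.77 ± 0.22 (SE; limma, adjusted *p* = 0.00558). It passed without each library in turn, with adjusted *p* from 0.00607 to 0.0331, which held for none of the other members that passed. The deep pair alone gave a log2 ratio of 1.48 and the 4 shallow libraries a log2 fold change of 1.91.

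*XTH20* was low in 0v, with 3.41, 12.9 and 6.84 normalized counts, and had 76.1, 45.6 and 68.1 in 4v. The 0v values rest on 1, 4 and 26 reads and the 4v values on 25, 225 and 24 reads. The log2 fold change was 2.57 ± 0.43 (SE; limma, adjusted *p* = 0.0132), and the means differed 8.20-fold. The call was lost without 4v replicate 1 (adjusted *p* = 0.0633) or 4v replicate 3 (0.0571), and with replicate number as a block (0.0503). Of the 6 root markers listed, 3 were tested and none passed with limma (Benjamini-Hochberg adjustment; none at an unadjusted *p* under 0.05 and none with edgeR, DESeq2 or limma-voom on the recovered reads). The summed level of the 6 lay higher in 4v, with no overlap. Most of that sum was *SCR*, with 236, 219 and 161 normalized counts in 0v and 277, 263 and 273 in 4v (limma adjusted *p* = 0.161). The root epidermis gene *WER* had 0, 0 and 1.32 normalized counts in 0v and 30.5, 11.6 and 8.52 in 4v. *PIN2* was at 0 in 0v replicate 2 and 4v replicate 3, and *NRT2.1* and *PLT1* were at 0 in 0v replicate 1. The part of root content in the rise of *XTH19* and *XTH20* was not tested.

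The promoters of the pair that rose are shown because 0v and 4v differ in temperature and motifs of cold and clock control could be looked for there. Each covers the 250 bases before the annotated transcript start (RefSeq, TAIR10.1), at chr4:14830225-14830474 on the minus strand for *XTH19* and chr5:19481647-19481896 on the plus strand for *XTH20*. Capitals mark the core of the dehydration-responsive element (CCGAC) and the evening element (AAATATCT), searched on both strands.
XTH19: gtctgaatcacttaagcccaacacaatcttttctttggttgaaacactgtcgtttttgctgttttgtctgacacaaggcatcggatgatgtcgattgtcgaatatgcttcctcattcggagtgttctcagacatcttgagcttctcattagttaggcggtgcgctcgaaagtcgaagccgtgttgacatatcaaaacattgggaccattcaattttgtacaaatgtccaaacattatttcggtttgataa
XTH20: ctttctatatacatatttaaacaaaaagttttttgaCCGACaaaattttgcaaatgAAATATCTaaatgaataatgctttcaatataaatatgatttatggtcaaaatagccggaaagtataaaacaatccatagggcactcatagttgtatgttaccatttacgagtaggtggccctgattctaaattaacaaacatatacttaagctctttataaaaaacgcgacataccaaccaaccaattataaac

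The *XTH20* window holds both motifs and the *XTH19* window holds neither. The first motif occurs in 2 of the 45 members (*XTH20* and *EXPB3*, 4.44%) and in 13.1% of 18306 promoters of the same length. The second occurs in 3 members (*XTH20*, *XTH27* and *XTH5*, 6.67%) and in 5.06% of all promoters. The G-box (CACGTG) occurs in none of the 45 and in 7.41% of all promoters. A match describes letters in a window and not a bound site.

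*XTH24*, also known as *MERI5* from meristems, fell. It had 3768.5, 2297 and 5618 normalized counts in 0v and 1148, 1666 and 1048 in 4v. The groups did not overlap, although 0v libraries varied widely, and the means were 3895 ± 1664 and 1287 ± 332 (SD, n = 3), a log2 fold change of -1.53 ± 0.34 (SE; limma, adjusted *p* = 0.0290). Per kb of transcript it was the most abundant member in 0v, with 3114, 1898 and 4643 normalized counts per kb, ahead of *XTH4* with 1663, 1071 and 1513. In 4v *XTH24* (949, 1377 and 866 per kb) and *XTH4* (1442, 896 and 1156 per kb) did not differ beyond their spread. The call was lost without 0v replicate 1 (adjusted *p* = 0.0831), 4v replicate 1 (0.105), 4v replicate 2 (0.0520) or 4v replicate 3 (0.0998), with eBayes without trend (0.0548) and with replicate number as a block (0.0778).

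The neighbours on chromosome 4 therefore showed a fall in *XTH24*, a rise in *XTH19* and, between them, no call in *XTH18*. *XTH18* had 123, 136 and 52.4 normalized counts in 0v and 158, 133 and 88.0 in 4v (log2 change 0.35 ± 0.39 SE, limma adjusted *p* = 0.576). The log2 ratio of *XTH19* to *XTH18* within a library was -1.39, -0.96 and 0.16 in 0v and 0.50, 0.36 and 1.22 in 4v. That ratio was higher in every 4v library than in every 0v library, with the narrowest gap at 0v replicate 3. The log2 ratio of *XTH19* to *XTH24* went from -6.29, -5.003 and -6.48 in 0v to -2.33, -3.25 and -2.30 in 4v. These ratios were formed after the values were known and are given without a test.

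**Figure D3:**
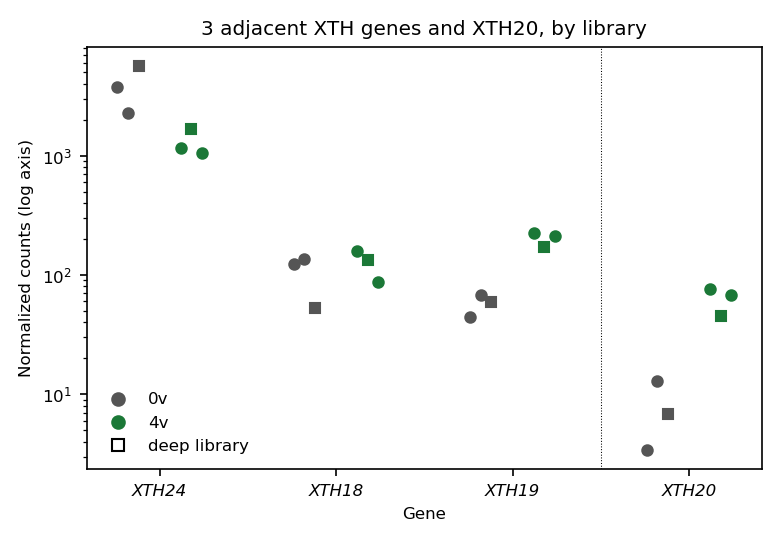
Normalized counts (log axis) of the adjacent genes *XTH24*, *XTH18* and *XTH19* and of *XTH20* on chromosome 5, in 0v (grey) and 4v (green) libraries, with deep libraries as squares. The groups part downward in *XTH24*, overlap in *XTH18* (52.4 to 136 against 88.0 to 158) and part upward in *XTH19* and *XTH20*.

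Other abundant genes of group I/II were lower in 4v on average without passing. *XTH22* (*TCH4*) had 2273, 1555 and 1586 normalized counts in 0v and 1526, 623 and 1187 in 4v. The groups did not overlap, by a margin of 0v replicate 2 over 4v replicate 1 that is small beside the spread within groups (log2 change -0.77 ± 0.34 SE, limma adjusted *p* = 0.164). *XTH4* had 2574, 1658 and 2342 in 0v and 2232, 1387 and 1789 in 4v (-0.28, adjusted *p* = 0.451). *XTH6* had 485, 329 and 253 in 0v and 201, 134 and 185 in 4v, with no overlap (-0.99 ± 0.27 SE, adjusted *p* = 0.0537).

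*XTH7* had 1092, 784 and 249 normalized counts in 0v and 234, 234 and 261 in 4v. The deep 0v library sat among the 4v libraries and the shallow 0v libraries stood far above them (log2 change -1.29 ± 0.49 SE, limma adjusted *p* = 0.125). Without 0v replicate 3 both *XTH6* (-1.21, adjusted *p* = 0.0215) and *XTH7* (-1.91, adjusted *p* = 0.00196) passed. *XTH15* was the reverse case: it had 352 and 374 normalized counts in the shallow 0v libraries, 2452 in the deep one and 219, 192 and 315 in 4v (-1.52 ± 0.71 SE, adjusted *p* = 0.189). The other 8 tested genes of this group lay between -0.93 (*XTH23*) and 1.52 (*XTH12*), and none passed (limma with Benjamini-Hochberg adjustment).

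In group III-B 2 of the 4 genes fell. *XTH27*, known from the veins of leaves, had 1338, 894 and 839.7 normalized counts in 0v and 573, 525 and 619 in 4v. The groups did not overlap and the means were 1024 ± 274 and 572 ± 47.0 (SD, n = 3), a log2 fold change of -0.81 ± 0.20 (SE; limma, adjusted *p* = 0.0405). The call was lost without 0v replicate 1 (adjusted *p* = 0.0692), 0v replicate 2 (0.0671), 4v replicate 1 (0.120), 4v replicate 2 (0.127) or 4v replicate 3 (0.0935), in the 4 shallow libraries (0.0618), with eBayes without trend (0.0776) and with replicate number as a block (0.0748). *XTH28*, which shares 77.7% of its coding sequence with *XTH27* and is known from stamens, had 297, 252 and 269.98 in 0v and 198, 200.4 and 170.4 in 4v, with no overlap (-0.52 ± 0.15 SE, adjusted *p* = 0.0612).

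*XTH30* had 307, 174 and 240.2 normalized counts in 0v and 107, 96.5 and 136 in 4v. Every 4v library lay below every 0v library, and the means were 241 ± 66.5 and 113 ± 20.7 (SD, n = 3), a log2 fold change of -1.04 ± 0.25 (SE; limma, adjusted *p* = 0.0356). The call was lost without 0v replicate 1 (adjusted *p* = 0.0918), 0v replicate 3 (0.0534), 4v replicate 1 (0.113), 4v replicate 2 (0.115) or 4v replicate 3 (0.0656), in the 4 shallow libraries (-0.92, adjusted *p* = 0.130), with reads thinned to an equal total (0.0685), with eBayes without trend (0.0599) and with replicate number as a block (0.0576). *XTH33*, whose product is anchored in the plasma membrane, went the other way, with 17.1, 19.4 and 17.1 normalized counts in 0v and 27.4, 22.9 and 34.1 in 4v (0.54 ± 0.33 SE, adjusted *p* = 0.298).

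In group III-A, known for xyloglucan hydrolysis, neither gene passed with limma (nor at an unadjusted *p* under 0.05), edgeR or DESeq2, and limma-voom called *XTH32*. *XTH31* had 174, 194 and 19.999 normalized counts in 0v and 110, 165 and 76.7 in 4v (log2 change 0.29 ± 0.79 SE, limma adjusted *p* = 0.832). *XTH32* had 157, 67.8 and 21.1 in 0v and 131, 107 and 82.3 in 4v (0.72 ± 0.62 SE, adjusted *p* = 0.463). In both genes the deep 0v library was the lowest of all.

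Summed over the 25 *XTH* genes, the normalized count was 14002, 10063 and 15018 in 0v and 8286, 6620 and 7320 in 4v. All 4v libraries lay below all 0v libraries, with means of 13028 ± 2617 and 7409 ± 837 (SD, n = 3; two-sided exact permutation test, *p* = 0.1, the smallest possible). *XTH24* made up 26.9%, 22.8% and 37.4% of the sum in 0v and 13.9%, 25.2% and 14.3% in 4v. Without *XTH24* the sums were 10234, 7766 and 9399 in 0v and 7138, 4954 and 6272 in 4v, still apart. Without *XTH15* as well they were 9882, 7391 and 6948 in 0v and 6919, 4762 and 5957 in 4v, so that only a narrow gap remained. The normalized totals over all genes were also higher in every 0v library than in every 4v library. They were 6096416.6, 5308349.5 and 5264197.5 in 0v and 4984082.8, 4689856.6 and 5215004.5 in 4v. The sums were not scaled to these totals, and whether the narrow gap would remain if they were was not tested.

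Root-hair members were low in both groups, and neither of the 2 that could be tested passed (limma with Benjamini-Hochberg adjustment; none at an unadjusted *p* under 0.05, nor with edgeR, DESeq2 or limma-voom on the recovered reads). *EXPA7*, which acts in root-hair outgrowth, had 6.83, 19.4 and 3.95 normalized counts in 0v and 6.09, 7.30 and 8.52 in 4v and fell under the filter. *EXPA18* had 6.83, 19.4 and 4.9997 in 0v and 21.3, 6.89 and 8.52 in 4v (adjusted *p* = 0.851). *XTH14* had 40.96, 29.04 and 21.3 in 0v and 45.7, 34.9 and 28.4 in 4v (adjusted *p* = 0.659), and *XTH26*, also under the filter, had 6.83, 6.45 and 10.8 in 0v and 0, 5.27 and 2.84 in 4v. The 6 root-hair markers with a row (of 7 listed) summed to 264 to 307 in 0v and 267 to 362 in 4v, so that neither these genes nor the markers separated the groups, apart from *XTH26*, which was lower in every 4v library (2, 2 and 41 reads in 0v, and 0, 26 and 1 in 4v). Most of the marker sum was *CSLD3*, with 236, 177 and 219 normalized counts in 0v and 234, 196 and 162 in 4v. Of the 4 markers tested, limma-voom on the recovered reads called *PRP3*. It had 27.3, 38.7 and 16.6 normalized counts in 0v and 57.9, 33.6 and 48.3 in 4v, with overlap (limma adjusted *p* = 0.234).

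The other members under the filter were *XTH13*, with 0, 0 and 7 reads in 0v and 4, 33 and 2 reads in 4v, and *EXLA3*, with 3.41, 12.9 and 2.37 normalized counts in 0v and 18.3, 9.93 and 8.52 in 4v. With no filter none of the 4 members passed, the smallest adjusted *p* being 0.0814 for *XTH13* (limma). *XTH13* is 89.4% identical to *XTH12* in its coding sequence, and *EXLA3* 86.0% to *EXLA1*.

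Of the genes that make or trim xyloglucan, make cellulose or acidify the wall, 1 passed with limma. None of the 10 tested genes of xyloglucan synthesis (of 13 listed), the 8 tested plasma membrane proton pumps (of 11) and the 9 tested genes of cellulose synthesis (of 13) passed (limma with Benjamini-Hochberg adjustment). At an unadjusted *p* under 0.05 there were 1, 3 and 1 such genes. The 3 pumps went both ways, with *AHA1* lower (-0.33) and *AHA3* and *AHA10* (1.29) higher. The share of all genes at that *p* alone was not taken, but 13.6% were higher and 12.4% lower when a 1.5-fold change was asked for as well. EdgeR on the recovered reads called none of the listed genes, DESeq2 called 1 pump (*AHA1*), and limma-voom called 2 pumps and, for cellulose, *CESA5*. The smallest adjusted *p* among pumps was that of *AHA3*, known from phloem companion cells, with 47.8, 29.04 and 158 normalized counts in 0v and 222, 170 and 239 in 4v (log2 fold change of 1.70, adjusted *p* = 0.0802). Among the 3 genes of xyloglucan trimming *AXY8*, an alpha-fucosidase gene, fell from 365, 436 and 310 in 0v to 216, 147 and 153 in 4v (-1.09 ± 0.21 SE, adjusted *p* = 0.0190). DESeq2 on the recovered reads also called *XYL1*, an alpha-xylosidase gene, with 2014, 1974 and 3591 normalized counts in 0v and 1654, 1242 and 1559 in 4v (-0.72 and adjusted *p* = 0.110 in limma).

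Depth class and group were crossed, with 1 deep library in each. 0v replicate 3 was the lowest 0v library in 20 of the 41 tested members (48.8%), beside 33.3% of all genes, and 4v replicate 2 the lowest 4v library in 20 (48.8%), beside 32.3%. Of the 40 tested members with a value in both, the deep pair and the shallow libraries gave changes of opposite sign in 11 (27.5%), beside 27.4% of all genes. In 4 of the 11 the deep pair differed by at least 1 on the log2 scale, beside 460 of the 4524 genes of opposite sign among all 16481. The 4 were *XTH31* (2.82 against -0.97 in the shallow libraries), *EXPB3* (1.68 against -1.17), *XTH18* (1.28 against -0.12) and *XTH23* (1.03 against -1.90). With depth class as a covariate all 7 members that passed kept their calls, and *XTH6* passed as well (-0.99, adjusted *p* = 0.0217 from limma). The part of depth, or of whatever else the deep libraries share, was not tested further.

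**Figure D4:**
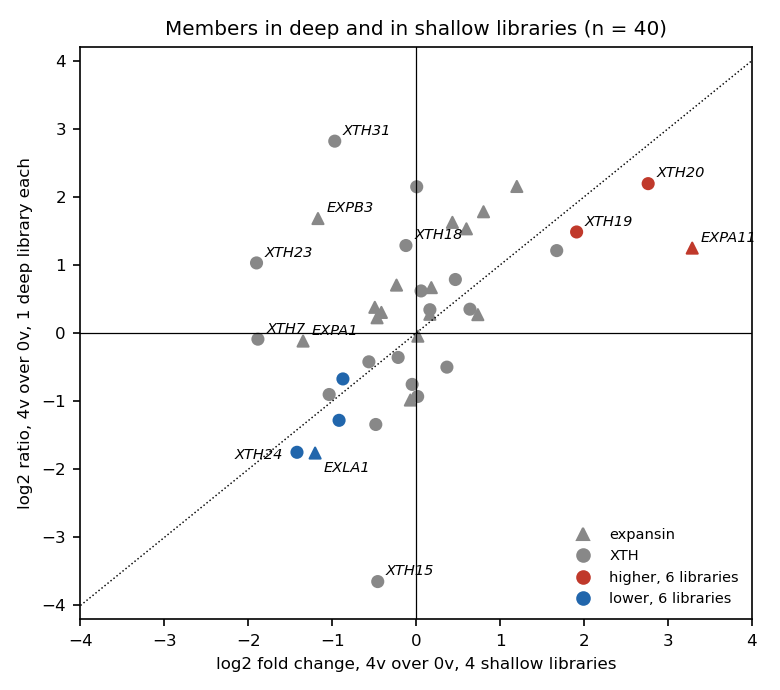
Log2 fold change (4v over 0v) of 40 members in the 4 shallow libraries (horizontal) against the log2 ratio in the deep pair (vertical, no replicate). Triangles are expansins, circles *XTH* genes, and the dotted line marks equality; the 7 coloured members that passed have the same sign on both axes, while 11 members lie in the quadrants of opposite sign.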

How the data were processed

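The authors made TruSeq mRNA libraries, quantified read pairs with kallisto against TAIR10 and divided gene counts by size factors in DESeq2, whose versions are not given in the sources used here. Such normalized counts are the signal they deposited. All 110208 values gave whole numbers within 0.05 of a read plus 1e-06 per read (100.0%), which are called reads here. Whether the kallisto counts had been rounded to whole numbers before deposition is not known. On these recovered reads edgeR called 946 genes higher and 1202 lower in 4v. Of 18369 rows 1 was displaced and left out. The authors' comparison columns (fold changes and p-values) and 20 columns with no sample name were not used.

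Groups came from the labels and growth conditions from the study's overview. Genes with a mean of at least 10 (16771) were tested with limma 3.58.1 (R 4.3.3; eBayes with trend) on log2(normalized count + 4), two-sided, with Benjamini-Hochberg adjustment over all of them. Fold changes on this scale understate those of low genes. The pseudocount was also set to 1 and to 16, and the filter was dropped or raised to 50. Further alternatives were the replicate block, quantile normalization, eBayes without trend, count models on recovered reads (DESeq2 1.42.0, edgeR 4.0.16 and limma-voom), the shallow libraries only, thinned reads, the study's thresholds and leaving out each library, and, chosen after seeing the data, depth class as a covariate.

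Named with every library's value were members that passed, the 4 of each family with the smallest adjusted *p* that did not, the 3 of each family most abundant per kb, and root-hair members. *EXPA16*, *EXPA20*, *EXPB1*, *EXPB3*, *EXLA2*, *EXLA3*, *XTH5*, *XTH12*, *XTH13*, *XTH15*, *XTH18*, *XTH23* and *XTH31* to *XTH33* were added after their values were seen, as were *HTB9*, *RBCS1A*, *LHCA1*, *SCR*, *PIN2*, *NRT2.1*, *PLT1*, *WER*, *PRP3* and *CSLD3*. Members, lists and tests were chosen with earlier results of these data known. All 45 members had the same coordinates in RefSeq (TAIR10.1).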

Additional observations from a re-analysis of the deposited data

How the results depend on the processing

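The number of members that passed was small and moved with the method. So did calls over all genes, from 1083 higher and 1172 lower to 2498 and 2318 with limma-voom, 946 and 1202 with edgeR, 1105 and 1395 with DESeq2, 870 and 885 with eBayes without trend and 481 and 567 with the replicate block. Expansins higher in 4v (1) became 5 with limma-voom and 0 with edgeR on the recovered reads, and ranged from 0 to 1 when 1 library was left out. Expansins lower (1) became 2 with limma-voom, DESeq2 or the shallow libraries, and ranged from 0 to 3. *XTH* genes higher (2) became 4 with limma-voom and 1 with a filter at a mean of 50, and ranged from 1 to 2. *XTH* genes lower (3) became 5 with limma-voom, DESeq2 or that filter and 0 with eBayes without trend, and ranged from 0 to 4. The study's thresholds (1.5-fold and unadjusted *p* under 0.05, past which 13.6% of all genes were higher and 12.4% lower) gave 2 expansins higher, 2 lower and 5 *XTH* genes lower. Replicates of the same number did not deviate together (correlations of 0.065, -0.131 and -0.132), and not every library correlated best with its own number. The highest correlation, 0.271, was between the 2 deep libraries (0v replicate 3 and 4v replicate 2). Because these differ in number, the check cannot tell whether the numbers pair the samples. With the replicate block the counts were 0 expansins lower, 1 *XTH* gene higher and 0 *XTH* genes lower. Among the members named by rule, without those added later, directions turned in 3, none of which passed. *EXPA18* (0.20) went to -0.12 with quantile normalization, -0.0495 with thinned reads and -0.0735 without 0v replicate 3 (-0.0735 to 0.44 over the left-out libraries). *XTH14* (0.24) went to -0.24 with thinned reads, and *EXPA8* (-0.24) to 0.13 without 0v replicate 1 (-0.59 to 0.13 over the left-out libraries). The members added later are not in that count. Of these, *XTH31* went from 0.29 to -0.97 in the shallow libraries, *XTH18* from 0.35 to -0.12 and *XTH5* from -0.30 to 0.017. The cause of these changes was not tested. In the shallow libraries 3 reads correspond to 8.52 to 10.2 normalized counts, which limits *XTH12*, *XTH20*, *EXPB1* and the root-hair members.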

Other observations

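RefSeq holds 64 genes with a symbol of these families, of which 23 are not among the 45. Of these, 3 have a row in the deposited table under another spelling, and 20 have none and were not analysed here. *EXPA10*, an alpha-expansin gene, had 75.1, 54.8 and 42.6 normalized counts in 0v and 204, 256 and 190.2 in 4v. All 4v libraries lay above all 0v libraries, with a log2 fold change of 1.87 ± 0.25 (SE; limma, adjusted *p* = 0.00677), so that with it 2 alpha-expansins would be counted as higher. *XTH17* did not pass (-0.23 ± 0.40 SE, adjusted *p* = 0.735), and *EXPA14*, with 0 to 19.9 normalized counts, fell under the filter.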
